A study of Taeniopygia guttata with 48 samples.

Results

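The comparison described here is that of egg testosterone with oil in the hypothalamus of adult female zebra finches (Taeniopygia guttata), a songbird. Eggs were injected on the day of laying with 5 µl of peanut oil that carried 500 pg of testosterone, or with the same volume of plain oil, and tissue was taken when the birds were adult. The hypothalamus was taken from frozen brain, sectioned at 50 µm, with a 1 mm punch, so each library holds all cell types of the punch. The 6 libraries are 3 from females of testosterone eggs and 3 from females of oil eggs, out of 24 RNA libraries in 8 groups of 3 (2 sexes, 2 regions, 2 treatments). All genes with a mean of at least 1 FPKM (fragments scaled to transcript length and to the library's total of mapped fragments) over these 6 libraries were taken, which were 13573 of the 17475 genes in the table. The identifiers are not paired with symbols in the table, and the gene table at hand matched 0 of them. Genes are therefore named by identifier, without function, and neither steroid receptors nor markers of the hypothalamus could be looked up. No label ties a library to a single bird, and p-values here therefore speak only of library-to-library spread, which may be technical.

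Avian mothers pass steroid hormones into the yolk, and the embryo meets them before its own gonads are active. Testosterone acts through the androgen receptor, and in the brain the enzyme aromatase turns part of it into oestradiol, which acts through oestrogen receptors. The hypothalamus carries these receptors and aromatase, and it controls reproduction, feeding, stress hormones and parts of social behaviour. The comparison asks whether a single exposure in the egg left a difference in transcript levels that could still be measured in the adult.

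Between the testosterone and the oil libraries, 0 of 13573 genes (0%) passed an adjusted p of 0.05 in limma, a linear model with moderated variances, when all 12 hypothalamus libraries of both sexes shared the estimate of the spread. At an unadjusted p under 0.05 there were 702 genes, or 5.17%, of which 243 were higher and 459 lower with testosterone, and the smallest adjusted p in limma was 0.66. Without testosterone replicate 3, a library that departs from all others, the count was again 0 of 13571 genes (0%). There were then 574 genes, or 4.23%, at an unadjusted p under 0.05, of which 218 were higher and 356 lower. The 2 sets of genes at an unadjusted p under 0.05 shared 251 genes, which is 35.8% of the first set and 43.7% of the second. The 2 fits share every library but replicate 3, so part of this overlap is built in.

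Precision per gene was limited. The 95% interval of a gene's difference had a median half-width of 0.90 on the log2(FPKM + 1) scale, equal to 1.87-fold, and of 0.79, equal to 1.72-fold, without testosterone replicate 3. It was narrowest for genes of 20 to 100 FPKM, at 1.73-fold with all libraries, and widest for genes of 1 to 5 FPKM, at 2.06-fold. A smaller change in a gene could go unseen. Bulk tissue cannot tell a smaller number of cells of a type from less RNA per cell. The intervals hold for single genes, without adjustment for the number of genes tested. Larger changes could therefore miss the adjusted threshold too. ENSTGUG00000017480, described below, was 17.9-fold lower with testosterone and had a limma adjusted p of 0.66.

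Testosterone replicate 3 stood apart before any comparison was made. Across the 13573 genes, on log2(FPKM + 1), its Pearson r with the other 5 female hypothalamus libraries was 0.736 to 0.817, while the oil libraries correlated with each other at 0.889 to 0.912 and testosterone replicates 1 and 2 at 0.930. Its total was 1476513 FPKM, against 808097 and 832652 in testosterone replicates 1 and 2 and 936210 to 983819 in the oil libraries. Of the genes tested, 511 were listed at 0 in it, against 236 and 177 in replicates 1 and 2 and 129 to 178 in the oil libraries. It held the highest or the lowest value of the 6 libraries for 69.0% of the genes, and the other 5 libraries did so for 17.1% to 33.9%. Its values lay outside the range of the 3 oil libraries for 75.7% of genes, against 41.4% for replicate 1 and 48.4% for replicate 2.

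**Figure D1:**
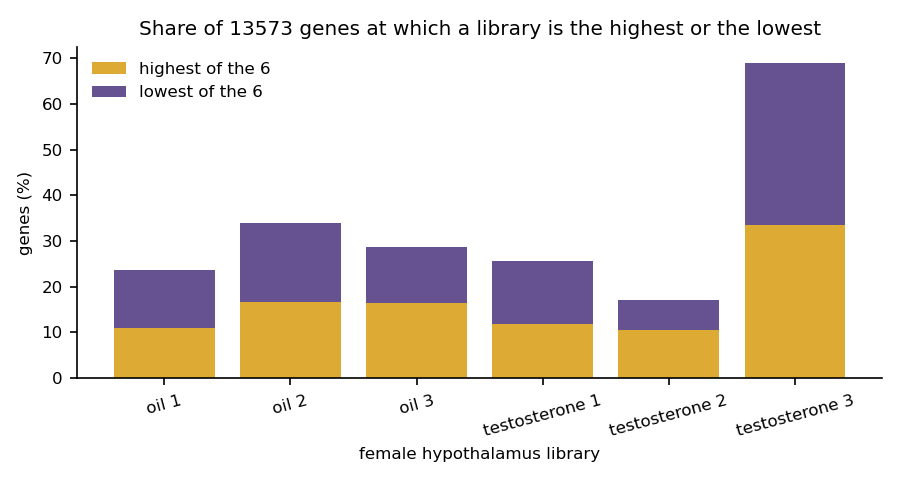
Share of the 13573 genes (vertical axis, percent) for which each of the 6 female hypothalamus libraries (horizontal axis) held the highest value (yellow) or the lowest value (purple) of the 6. Testosterone replicate 3 reached 69.0% in all, and the next library, oil replicate 2, reached 33.9%.

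The same library went against its label in 1 further respect. In birds males carry a pair of Z chromosomes and females a single one, and many Z-linked genes are not fully balanced between the sexes. Of the genes tested here, 195 were higher in each of the 6 male nucleus taenia libraries than in any of the 6 female ones. Hypothalamus libraries entered that choice only through the filter of a mean of at least 1 FPKM over the 6 female ones. Each library was scored by their mean log2(FPKM + 1), less their mean over the 24 libraries. The oil females scored −0.48 to −0.39 in the hypothalamus and testosterone replicates 1 and 2 scored −0.50 and −0.23, while replicate 3 scored 0.37, inside the range of 0.20 to 0.58 of the male hypothalamus libraries. Replicate 2, at −0.23, also lay above every other female library of both regions except replicate 3. The next female library was oil replicate 2 of the hypothalamus, at −0.39. Which of the 195 genes are Z-linked could not be looked up. With replicate 3 in the group, 173 of the 195 genes had a higher mean with testosterone and the median difference was 0.34 on the log2 scale. Over all genes 50.9% were higher and the median difference was 0.01. Without replicate 3, 124 of the 195 were higher and the median difference was 0.09, where over all genes 50.3% were higher and the median was 0.00. Replicate 2 stayed in that comparison, and its part in these values was not tested. A further 43 genes were lower in each male nucleus taenia library than in any female one. On these genes the male hypothalamus libraries scored −0.69 to 0.23 and the oil females 0.10 to 0.60, so the sexes overlapped. Testosterone replicates 1 and 2 scored 0.41 and 0.37 there, and replicate 3 scored −0.25. Of the 43, 21 had a higher mean with testosterone with replicate 3 and 26 without it, with median differences of −0.02 and 0.09. What sets replicate 3 apart was not tested, and the results that follow are given with it and without it.

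Estimated sequencing depth also moved with treatment. From the steps between low values, relative depth, where 1 is the median of all 24 libraries, was 0.646, 0.894 and 0.714 in testosterone replicates 1 to 3 and 1.38, 1.38 and 1.12 in oil replicates 1 to 3. The groups did not overlap in depth. The estimate is rough, since 32.2% of the 276 library pairs lay within 3% of the fitted depths. The number of genes above 0 did not overlap between the groups either, at 14285 to 14870 with testosterone and 15013 to 15152 with oil. Within each group its order differed from that of depth. The part of depth in the differences below was not tested.

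Leaving the model aside, 1270 of the 13573 genes (9.36%) had testosterone and oil libraries that did not overlap. Of these, 664 (4.89%) lay higher in every testosterone library and 606 (4.46%) lay lower. If every order of the 6 libraries were equally likely, a share of 0.1 of genes would not overlap, and the share seen was near that. With testosterone replicates 1 and 2 alone against the 3 oil libraries, 2445 genes (18.0%) did not overlap, 1220 (8.99%) higher and 1225 (9.03%) lower. The share given by order alone is larger with fewer libraries, so the 2 counts cannot be compared directly and neither is a sign of treatment. All testosterone libraries are set against the same oil libraries, so part of any agreement between them is built in, and the positions of replicate 3 are given as a description. Among the 1220 higher genes it lay above all oil libraries in 664, or 54.4%, within their range in 250 and below all of them in 306, or 25.1%. Among the 1225 lower genes it lay below all oil libraries in 606, or 49.5%, and above all of them in 451, or 36.8%. Over all 13573 genes replicate 3 lay above all oil libraries in 37.4% and below all of them in 38.4%.

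The size of the differences depended on the same library. With all 6 libraries the mean log2(FPKM + 1) of 1510 genes differed by at least 2-fold, 293 higher and 1217 lower with testosterone. Without replicate 3 there were 564 such genes, 280 higher and 284 lower, and 299 genes met the description in the same direction both times. The median absolute difference was 0.38 with all libraries and 0.25 without replicate 3, on a scale on which the median SD between the oil libraries was 0.36. The median SD of the testosterone libraries was 0.61, and 0.27 between replicates 1 and 2. For the same spread the median SD of 2 libraries is smaller than that of 3. The 0.27 can therefore not be compared directly with 0.36 or 0.61. The direction of the difference was the same with and without replicate 3 for 72.3% of genes. Both differences use the same oil libraries and testosterone replicates 1 and 2, so part of this agreement is built in.

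**Figure D2:**
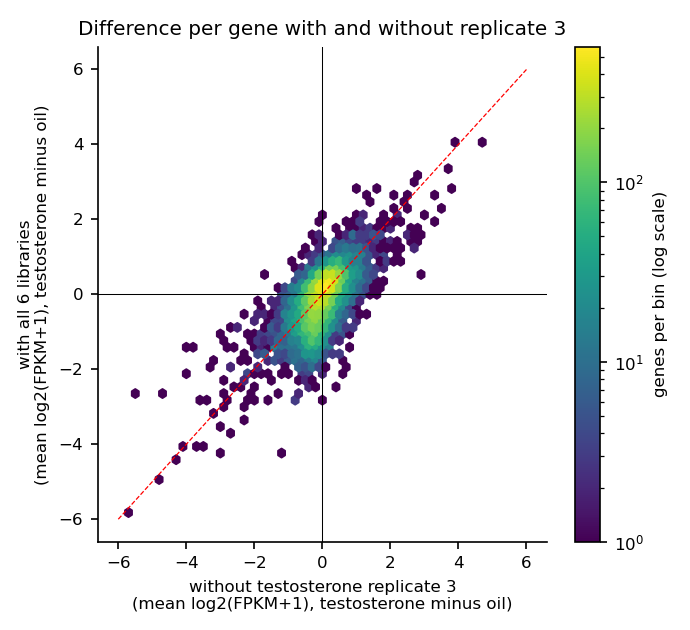
Difference between testosterone and oil for each gene, as mean log2(FPKM + 1), with all 6 libraries (vertical axis) against the value without testosterone replicate 3 (horizontal axis). Colour gives the number of genes per bin on a log scale and the dashed line marks equal values. The cloud is stretched downwards, where 1217 genes were at least 2-fold lower with all libraries and 284 without replicate 3.

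Abundant genes leaned one way when replicate 3 was left out. Of the 1836 genes with a mean of 100 FPKM or more, 33.1% had a higher mean with testosterone in replicates 1 and 2 than in the oil libraries, while 58.6% of the genes of 5 to 20 FPKM did. With replicate 3 the share of the abundant genes was 59.0%. After quantile normalization the shares of the abundant genes were 51.4% without replicate 3 and 52.9% with it. Genes were grouped by their mean over the same 6 libraries, replicate 3 included, and the part of that choice in these shares was not tested. Among the 100 most abundant genes, with means of 1110 to 13491 FPKM, 26 were lower in both of these testosterone libraries than in every oil library and 0 were higher, where 9.03% and 8.99% of all genes were. With replicate 3 included these counts were 8 and 0. Median-ratio scaling gave 27 and 0, but quantile normalization gave 5 lower and 7 higher. Quantile normalization gives every library the same set of values, so it takes out such a lean by design. Its counts therefore cannot say whether the lean depends on scaling. The 10 most abundant genes of each library took 5.93% and 5.99% of the total FPKM in testosterone replicates 1 and 2, 7.04% to 8.87% in the oil libraries and 11.3% in replicate 3. The 100 genes most abundant in male hypothalamus, which no female value chose, gave the same counts of 26 lower and 0 higher, and 74 of them were also in the first list.

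**Figure D3:**
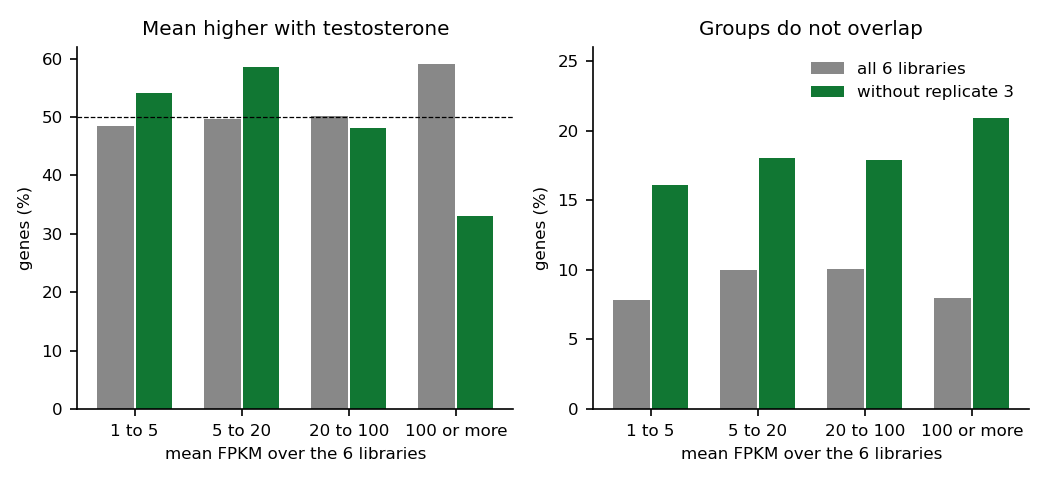
Left, share of genes (percent) with a higher mean in the testosterone libraries, by mean FPKM over the 6 libraries, with all libraries (grey) and without testosterone replicate 3 (green); the dashed line marks 50%. Right, share of genes whose testosterone and oil libraries do not overlap. Genes of 100 FPKM or more stand at 59.0% with replicate 3 and at 33.1% without it. After quantile normalization, not drawn, these shares were 52.9% and 51.4%. That scaling gives every library the same set of values and so takes out such a lean by design.

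Genes are named by a fixed rule, as the 2 with the highest and the 2 with the lowest moderated t among genes whose groups did not overlap. None of the 4 passed the adjusted threshold. Their direction is fixed by that choice and is no sign of stability. The size of their differences is raised by the choice too, also where it enters a contrast with another group.

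ENSTGUG00000009232 was at 7.62, 7.15 and 5.57 FPKM in oil replicates 1 to 3 and at 17.3, 26.3 and 27.8 FPKM in testosterone replicates 1 to 3. Its lowest testosterone library was above its highest oil library by more than the range of the oil libraries. The log2 difference was 1.65 (SE 0.41, limma adjusted p = 0.66), and 1.53 (SE 0.45, limma adjusted p = 0.995) without replicate 3. In the female nucleus taenia, which took no part in choosing the gene, the level was 7.64 ± 2.82 FPKM with oil and 12.8 ± 1.77 FPKM with testosterone (SD, n = 3 each). All 3 testosterone libraries there lay above all 3 oil libraries (log2 difference 0.71, SE 0.42, limma adjusted p = 1). Order alone frees a share of 0.1 of genes from overlap, and the share of all genes without overlap there was not counted. Of the 702 genes at an unadjusted p under 0.05 in limma, 75.9% had the same sign there, so the agreement is not particular to this gene. Whether the 2 regions come from the same birds is not stated. In males the groups overlapped in both regions, with 8.29 ± 6.0 FPKM against 8.45 ± 2.54 FPKM in the hypothalamus (SD, n = 3 each).

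ENSTGUG00000010294 was at 2.29, 3.40 and 3.29 FPKM with oil and at 10.6, 9.73 and 12 FPKM with testosterone in replicates 1 to 3. Replicate 3 was close to the other testosterone libraries, and each of them stood above every oil library. The log2 difference was 1.57 (SE 0.41, limma adjusted p = 0.66), and 1.49 (SE 0.46, limma adjusted p = 0.995) without replicate 3. Female nucleus taenia held 3.94 ± 0.25 FPKM with oil and 5.72 ± 0.56 FPKM with testosterone (SD, n = 3 each), again with no overlap (log2 difference 0.44, SE 0.46, limma adjusted p = 1). The limits given for the nucleus taenia with the gene above hold here too. In male hypothalamus the levels were 2.86 ± 2.31 and 3.14 ± 1.22 FPKM (SD, n = 3 each), and the groups overlapped.

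ENSTGUG00000017480 was at 20.8, 61.8 and 27.1 FPKM in the oil libraries and at 5.75, 0 and 0 FPKM in the testosterone libraries. It is listed at 0 in replicates 2 and 3, and in none of the other 22 libraries. The log2 difference of −4.16 (SE 0.69, limma adjusted p = 0.66) rests on those listed zeros, and it was −6.40 with a pseudocount of 0.1 and −2.56 with one of 5. Without replicate 3 it was −3.70 (SE 0.73, limma adjusted p = 0.995). The groups overlapped in female nucleus taenia, where oil libraries ran from 19.5 to 59.6 FPKM and testosterone libraries from 15.9 to 45.7 FPKM. They overlapped in male hypothalamus as well, at 23.8 to 49.0 FPKM and 16.8 to 32.4 FPKM.

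ENSTGUG00000015842 was at 22.6, 34.4 and 19.2 FPKM with oil and at 9.47, 4.12 and 3.66 FPKM with testosterone in replicates 1 to 3. Every testosterone library was below every oil library, with no value at 0. The log2 difference was −2.03 (SE 0.41, limma adjusted p = 0.66), and −1.81 (SE 0.43, limma adjusted p = 0.995) without replicate 3. In male hypothalamus the order was the other way, at 16.5 ± 6.71 FPKM with oil and 26.1 ± 6.09 FPKM with testosterone (SD, n = 3 each), though these groups overlapped. The female minus the male treatment difference was −2.72 on the log2 scale (SE 0.58, limma adjusted p = 0.978). The female part of this contrast is the difference by which the gene was chosen. In female nucleus taenia testosterone replicates 1 to 3 were at 10.6, 1.39 and 32.7 FPKM, and the oil libraries at 17.4 to 29.3 FPKM, so 2 of 3 testosterone libraries were below the oil range and 1 above it.

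**Figure D4:**
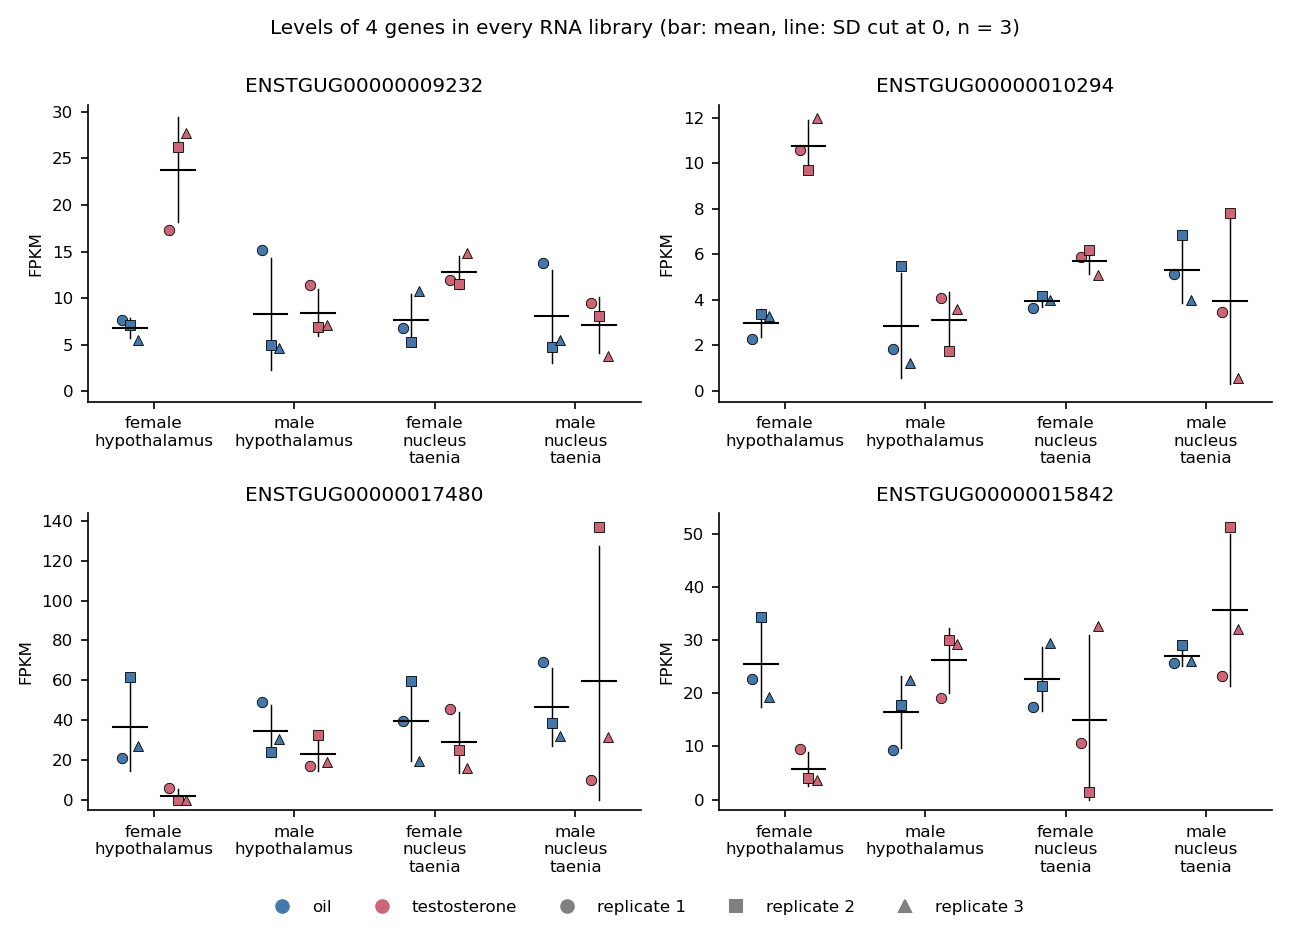
FPKM of the 4 genes (1 panel each, vertical axis) in all 24 RNA libraries, by sex and region (horizontal axis), with oil in blue and testosterone in red; marker shape gives the replicate number, the bar the mean and the line the SD of 3 libraries, ended at 0. In the female hypothalamus no testosterone value of these genes overlaps the oil values, which is how they were chosen.

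A few genes were listed at 0 throughout 1 treatment. Of the tested genes, 6 were listed at 0 in all 3 testosterone libraries and above 0 in all 3 oil libraries, and 1 was the reverse. A value of 0 in this table can be a failed estimate, and testosterone replicates 1 and 3, with 236 and 511 tested genes at 0, held more zeros than any oil library, while replicate 2, with 177, did not. ENSTGUG00000002419, singled out after its values were seen, is 1 of the 6 and was at 78.4, 34.2 and 53.4 FPKM in oil replicates 1 to 3. It was the only gene (0.00737% of 13573) past the adjusted threshold when the fit held the 6 female hypothalamus libraries alone (limma adjusted p = 0.0294), and without replicate 3 in such a fit its adjusted p in limma was 0.0542. With all 12 hypothalamus libraries its adjusted p in limma was 0.66. In other groups the gene switched between 0 and high values in both treatments. It was at 54.0 FPKM in 1 oil library and 76.7 FPKM in 1 testosterone library of the female nucleus taenia and listed at 0 in the other 4, and it was listed at 0 in all 6 male testosterone libraries and in 3 of the 6 male oil libraries.

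ENSTGUG00000013784, named because it was the single gene listed at 0 in every oil library and in no testosterone library, was at 121, 3.85 and 7.69 FPKM in testosterone replicates 1 to 3 (limma adjusted p = 0.66). Replicate 1 was far above the others. Over all 24 libraries its high values came in same-numbered pairs from both regions. Female testosterone replicate 1 held 121 FPKM in the hypothalamus and 297 FPKM in the nucleus taenia. Male oil replicate 1 held 300.1 and 300.3 FPKM in these regions and male oil replicate 3 held 334 and 286 FPKM. The other 18 libraries lay between 0 and 7.69 FPKM. Across genes, deviations from the group mean of same-numbered libraries of the 2 regions correlated at r = 0.34, 0.22 and 0.249 in testosterone females, and at −0.011, 0.281 and 0.223 in oil females. Differently numbered libraries reached 0.36 in oil females, above every same-numbered pair there, and 0.0698 in testosterone females. In males the same-numbered values were 0.658, 0.527 and 0.52 with oil and 0.391, 0.303 and −0.083 with testosterone. The labels do not say that a number marks a bird.

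**Figure D5:**
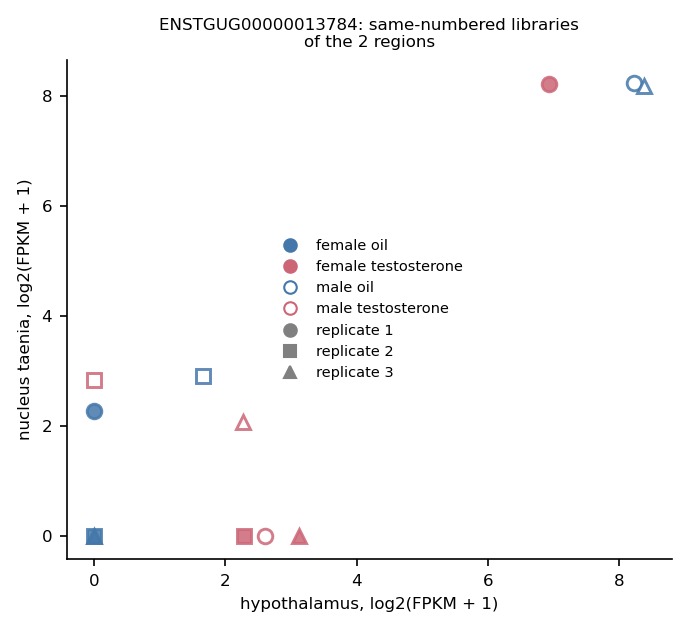
Level of ENSTGUG00000013784 in the hypothalamus (horizontal axis) and in the nucleus taenia (vertical axis), both as log2(FPKM + 1), with 1 point for each of the 12 same-numbered pairs of libraries. Colour gives the treatment, filling the sex and shape the replicate number. Female testosterone replicate 1 and male oil replicates 1 and 3 stand high in both regions, and the other pairs stand low in both.

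Whether a treatment difference differed between the sexes was tested in the hypothalamus, as the female minus the male difference. In limma 0 of 13573 genes (0%) passed, and 404 genes, or 2.98%, had an unadjusted p under 0.05. The 95% interval of this contrast reached 1.28 to either side on the log2 scale at the median gene, equal to 2.42-fold. Without female testosterone replicate 3 the count was 0 (0%), with 494 genes, or 3.64%, and a half-width equal to 2.08-fold. The treatment difference in females, hypothalamus minus nucleus taenia over all 24 libraries, passed in limma for 0 genes (0%), with 376, or 2.77%, at an unadjusted p under 0.05. Without replicate 3 it passed for 0 genes (0%), with 134, or 0.987%. The half-width of the region contrast at the median gene was equal to 2.29-fold, and to 2.13-fold without replicate 3. These values take libraries of the 2 regions as independent. With the replicate number within sex and treatment as a block, an alternative chosen after seeing the data, 0 genes passed in limma and 844 had an unadjusted p under 0.05, or 342 without replicate 3.

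The female hypothalamus shares no library with the other 3 treatment comparisons, so their values can be set side by side gene by gene. Without testosterone replicate 3, the difference in female hypothalamus had the sign of that in female nucleus taenia for 63.0% of genes, with a Pearson r of 0.371 across 13573 genes, which are not independent. Among the 574 genes at an unadjusted p under 0.05 the share was 82.4%. The 218 higher ones had a median log2 difference of 0.41 in the nucleus taenia and the 356 lower ones −0.27, where the median over all genes was 0.03. With replicate 3 the shares were 53.4% of all genes and 75.9% of the 702, and r was 0.155. The female nucleus taenia libraries differed in estimated depth in the same direction, at 0.810, 0.921 and 0.856 with testosterone and 0.979, 1.08 and 1.00 with oil, and the part of depth and of shared birds was not tested.

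The agreement did not extend to every group. With male hypothalamus the sign was the same for 58.7% of genes without replicate 3, and for 67.9% of the 574 genes. The male hypothalamus libraries entered the spread by which the 574 and the 702 genes were chosen, though not their female differences. With male nucleus taenia it was the same for 38.9% of genes and 22.3% of the 574, and r was −0.189. With replicate 3 this opposite lean was not seen over all genes, where the share was 50.5% and r was 0.058. With replicate 3 the shares of the 702 genes were 76.6% in male hypothalamus and 37.2% in male nucleus taenia. Male nucleus taenia testosterone replicate 2 had a mean r of 0.852 with the other RNA libraries. Only female hypothalamus testosterone replicate 3, at 0.754, was lower. The part of that male library in these shares was not tested. Estimated depth in male hypothalamus was 1.23, 0.674 and 0.842 with testosterone and 1.06, 1.11 and 1.24 with oil in replicates 1 to 3. In male nucleus taenia it was 1.23, 0.973 and 1.12 with testosterone and 1.30, 0.586 and 0.997 with oil. The mean depth was thus lower with testosterone in both female regions and in male hypothalamus, and higher in male nucleus taenia. The higher mean there rests on oil replicate 2 at 0.586, the lowest depth of all RNA libraries. Testosterone and oil libraries overlapped in depth in both male regions. The part of depth in these shares was not tested.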

How the data were processed

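FPKM values of 17475 genes in 24 RNA libraries were used as the authors deposited them, and 0 columns could not be tied to a sample. The tools named in the submitters' processing notes are Cufflinks 2.2.1, TopHat2 2.1.1 and cutadapt 1.9.1. For build and annotation, the entry is: not given in the sources used here. FPKM divides out depth and length, so absolute depth is unknown; relative depth was fitted to the commonest ratio of values under 0.2 FPKM in each pair of libraries. The 24 methylation samples were not analysed here.

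Genes with a mean of at least 1 FPKM over the 6 female hypothalamus libraries were tested on log2(FPKM + 1) with limma 3.58.1 (R 4.3.3), with 1 mean per group, a variance trend and Benjamini-Hochberg adjustment at 0.05. The hypothalamus fit held 12 libraries and the region contrast 24. With the pseudocount, fold changes come out too small for genes of low level. Genes with equal values in all libraries of a fit carry no test. The tests were tried on simulated data. Each gene had the same spread there in every library, with no departing library and no difference in depth. The trial therefore cannot show how the fits behave with those features. Figures were drawn with matplotlib 3.10.9. The genes tested, the lists and the naming rule (the 2 highest and 2 lowest moderated t among genes without overlap) were chosen with earlier results of these data known. Lists of pathway and cell type genes could not be applied, since no symbols were at hand. Replicate numbers are shared by the groups, but testosterone and oil libraries of the same number deviated together in 1 of 3 pairs only (r = −0.141, 0.135 and −0.078), so they were not taken as paired.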

Additional observations from a re-analysis of the deposited data

Results flagged for a closer look

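Among 9 measures of the 6 female hypothalamus libraries, 5 had an extreme library far from the rest. Chance flags about 1 in 20, but the measures are not independent. That testosterone replicate 3 departs was also known beforehand, so the count is a description and cannot be set against that rate. All 5 were of testosterone replicate 3. Its total was 1476513 FPKM (next library 983819), its median 7.03 FPKM (next 11.1), and 511 tested genes were listed at 0 in it (next 236). Its mean r with the other 23 libraries was 0.754 (next 0.893), and its score on the 195 male-higher genes was 0.365 (next −0.228).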

How the results depend on the processing

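The count of 0 genes for treatment was the same under 14 of 18 alternatives (pseudocounts of 0.1 and 5, no filter, a mean of at least 5 FPKM, median-ratio scaling, quantile normalization, robust moderation, other sets of libraries, the replicate block), with 206 to 1404 genes at an unadjusted p under 0.05 in those that leave out no library. Library weights gave 2074 genes, in a fit whose weights ran from 0.055 to 231, and 21 genes for treatment by sex; without replicate 3 the weights gave 0 and 0. Fitting the 6 libraries alone gave 1 gene. Leaving out single libraries gave 0 to 3 genes (3 without testosterone replicate 1, among them ENSTGUG00000017480, and 2 without replicate 2), with 480 to 2858 at an unadjusted p under 0.05. With replicate 3 already out it gave 0 to 3, the 3 without testosterone replicate 2, where the lone library left is assumed to vary like the other groups. Treatment by sex gave 0 to 1, the 1 arising when female testosterone replicate 2, or else male testosterone replicate 3, was dropped, and 2 genes when female testosterone replicates 2 and 3 were both out. Treatment by region gave 0 in every alternative. Genes without overlap numbered 1817 to 4258 with 1 library fewer. The lowest count came without testosterone replicate 2 and the highest without testosterone replicate 1. More genes are free of overlap by order alone when a library is left out, and the part of order in these counts was not tested. The replicate block left 0 calls for treatment (626 genes under 0.05 unadjusted, or 206 in a fit of the 6 libraries alone, where the 1 call was lost); a block by number across the regions, added after the data were seen, gave 0 for treatment by region, with 844 genes under 0.05 unadjusted and 342 without replicate 3, against 376 and 134. The block changed no other call. Library weights also called all 4 named genes, with adjusted p in limma from 0.000386 to 0.0244. The same fit called 2074 of 13573 genes, and the 4 were chosen as extremes of the same contrast. Their being called is therefore partly built in and is no support for them.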
